A study of Gallus gallus with 6 samples.

Results

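The genes described here are those named as proteins of the mitochondrial ribosome. They were chosen by name: every probe set whose single gene symbol in the array's annotation is MRPL or MRPS followed by a number, with at most a letter from A to C after it. This gave 96 of the 38439 probe sets tested, for 67 of 13051 genes, and where a gene had several, the one that was brightest on average over the 6 arrays stood for it. The rule uses gene names and brightness over all arrays. The FGF2 group was chick forelimb bud tissue around a heparin acrylic bead soaked in recombinant human fibroblast growth factor 2 (FGF2), and the PBS group was tissue around the same kind of bead soaked in phosphate-buffered saline (PBS). Both beads were placed in the posterior mesoderm of the wing-forming bud, and tissue was collected 24 h later, when the embryos were at HH25 on the Hamburger–Hamilton scale. No strain or genetic change is given for either group. Each group had 3 arrays. An array holds the RNA of a pool of embryos, with the replicates made on different days. The values are log2 signals of Affymetrix chicken arrays after Robust Multi-array Averaging (RMA).

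Mitochondria keep a small genome that encodes core subunits of the respiratory chain, and these are made by a ribosome of their own. Its RNA comes from the mitochondrial genome, but all of its proteins are encoded in the nucleus, made in the cytosol and imported. The large subunit (genes named MRPL) joins amino acids and holds the exit tunnel of the new chain, and the small subunit (MRPS) reads the messenger RNA. Many of the proteins have bacterial counterparts, and others are found in mitochondria only. In mammalian structures MRPS18A and MRPS30 sit in the large subunit despite their names, and they are counted there. By assigned class the members thus comprised 45 proteins of the large subunit, 26 with a bacterial counterpart and 19 specific to mitochondria. The small subunit had 22, of which 12 were classed with a bacterial counterpart and 10 as specific to mitochondria. Whether each of them, such as MRPS36, is part of the chicken ribosome was not tested. In a list of the family 16 of 83 names had no probe set with that single symbol. Of these 4 were measured under other symbols, outside the rule, and their values are given apart from the members, and the others, such as MRPL11 and MRPS15, were not analysed here.

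Array medians over all probe sets were 4.75 to 4.81, and arrays of the same group correlated at 0.9976 to 0.9988 over probe sets, arrays of different groups at 0.9962 to 0.9981. All 9 measured markers of limb mesenchyme lay above the background, taken as the 95th percentile (3.57) of 746 probe sets whose names lack the chicken prefix of the rest. At an unadjusted p under 0.05, 1 of these 9 was higher around FGF2 beads and 2 were lower, with log2 fold changes (FGF2 minus PBS) from -0.56 to 0.66. Of all genes 7.76% were higher and 4.58% lower at that p. Markers of other cell types were present too. Of 10 macrophage markers 7 were higher at an unadjusted p under 0.05, and their summed linear level was 3207 to 3865 on FGF2 arrays and 1970 to 2156 on PBS arrays. The 11 skeletal muscle markers summed to 37931 to 50663 on FGF2 arrays and 49235 to 54609 on PBS arrays, with 4 lower at that p. The 7 cartilage markers summed to 27661 to 39688 on FGF2 arrays and 29224 to 51235 on PBS arrays, and none passed. The log2 fold change was below 0 for 6 of these 7 (median -0.55) and for 10 of the 11 skeletal muscle markers (median -0.50). Without PBS replicate 1 these medians were -0.28 and -0.45. The mean of 3 macrophage markers lay under the background level, and that of no muscle or cartilage marker did. Their part in the values below was not tested, and in bulk tissue fewer cells of a type and less RNA per cell cannot be told apart.

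The mitochondrial ribosomal protein genes stood close to the same level around FGF2 and PBS beads. No member passed an adjusted p of 0.05 in the limma fit over all probe sets (0.00766% of all genes, 0.00821% of the 12175 genes within the members' range of brightness and 0.0104% of all probe sets did), and the smallest adjusted p was 0.433, for MRPS6. At an unadjusted p under 0.05, the threshold on p that the study used, 0 members were higher and 1 was lower, 1.49% of the 67. Of all genes 12.3% passed at that p, 7.76% higher and 4.58% lower, and of genes within the members' range of brightness 13%, 8.23% higher and 4.75% lower. The values of the groups did not overlap for 1 member that was higher, MRPS9, and 1 that was lower, MRPS6, where 9.12% of all genes were higher without overlap and 6.83% lower (9.59% and 6.99% within the members' range of brightness). That range is wide, 1.94 to 13.26, and its genes had a median level of 8.41 against 11.13 for the members. Of 4087 genes with a mean of 10 or more, 371 (9.08%) were higher and 223 lower at that p. Without overlap 465 of them were higher and 297 lower. Of 56 members that bright, 0 were higher and 1 lower at that p, and 1 and 1 without overlap.

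The changes themselves were small. The log2 fold change (FGF2 minus PBS) had a median of 0.036 over the members, with the middle 50% of them between -0.0034 and 0.074, against a median of -0.013 over all genes. It was above 0 for 49 members (73.1%) and below 0 for 18, while 45.5% of all genes and 46.9% of those within the members' range of brightness were above 0. The estimate was within 1.25-fold of no change for 65 of 67 members (97.0%) and within 1.5-fold for all 67, where 91.2% and 97.5% of all genes were, and 95.4% and 98.9% of genes with a mean of 10 or more. The 95% interval of the change, taken gene by gene from the limma fit without adjustment, lay inside 1.5-fold in both directions for 65 members (97.0%), the exceptions being MRPL22 and MRPS6. The same held for 85.8% of all genes. Inside 1.25-fold lay the intervals of 54 members (80.6%) and of 61.8% of all genes.

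**Figure D1:**
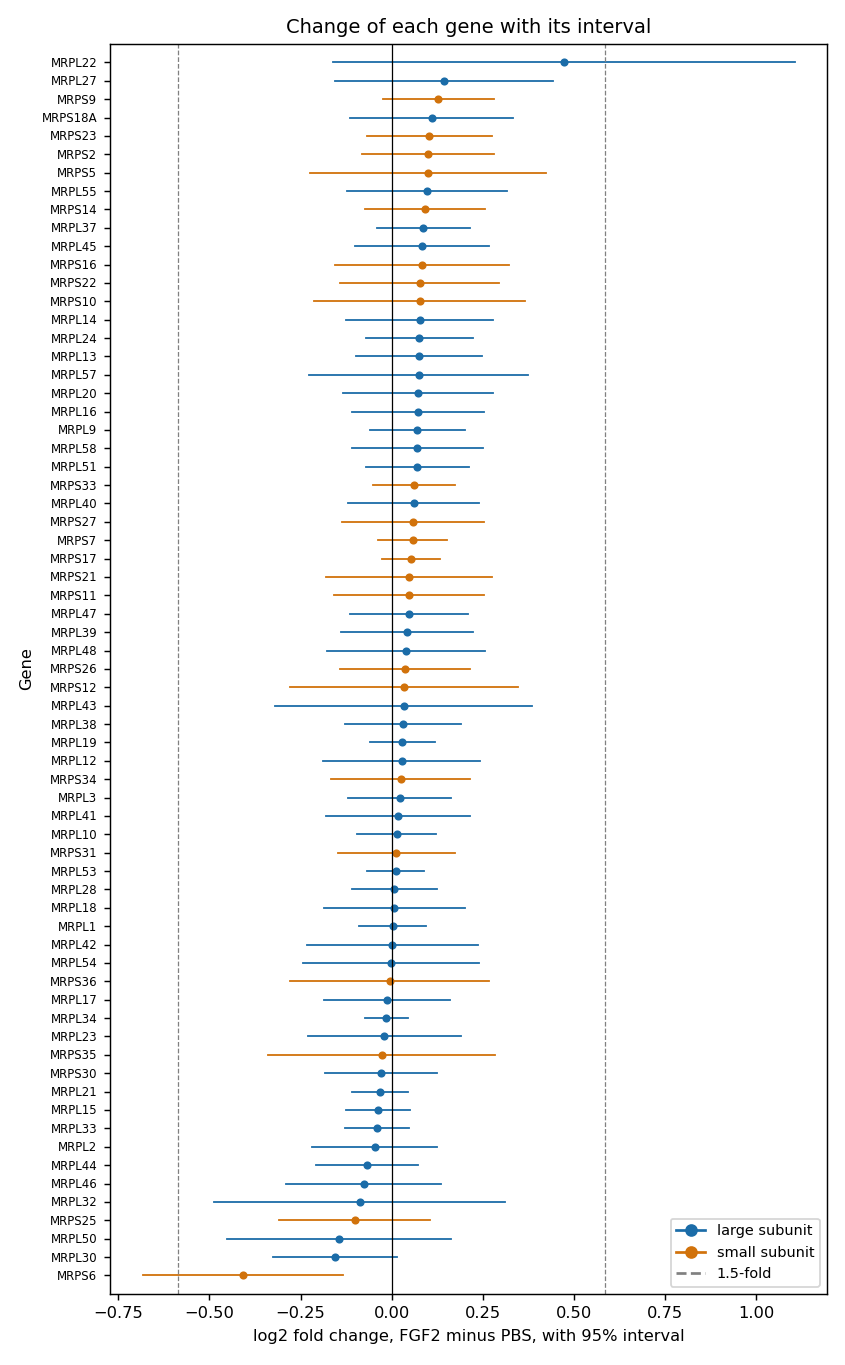
The log2 fold change (FGF2 minus PBS, x axis) of each of the 67 genes (y axis, ordered by change) with its 95% interval from limma. Lines and points are colored by subunit and dashed lines mark 1.5-fold. All intervals but those of MRPL22 and MRPS6 lie between the dashed lines, and only the interval of MRPS6 leaves out 0.

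Most members were bright on the array, so they were also set beside genes of like brightness. Of the members 56 had a mean of 10 or more, as did 4087 genes. Among these, 44 members lay above 0 and 12 below, and their median change was 0.041, while 57.8% of all bright genes were higher, with a median of 0.019. In bands 1 log2 unit wide the members and all genes had medians of 0.033 and 0.030 between 10 and 11 (20 members), 0.057 and 0.023 between 11 and 12 (23 members) and 0.048 and 0.012 between 12 and 13 (11 members). The median over the members varied between arrays of a group by an SD of 0.0707 (pooled over both groups). That SD is for the members on single arrays and does not measure the spread of the gaps between members and all genes. No test of these gaps was made. Intervals inside 1.5-fold were found for 55 of the 56 bright members (98.2%) and for 93.2% of all bright genes. Levels of different probe sets depend on their probes as well as on the transcript, so brightness does not rank the genes by expression.

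**Figure D2:**
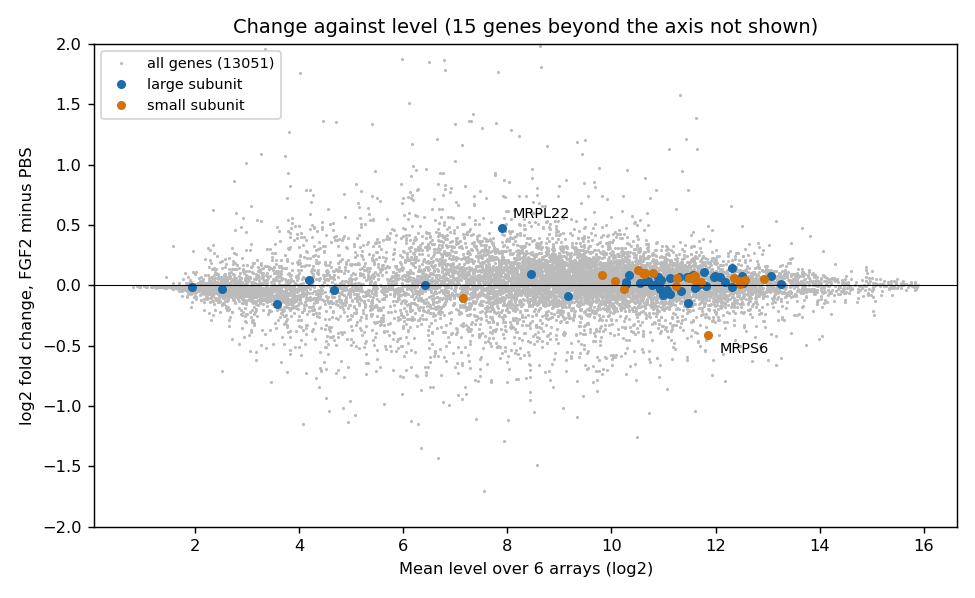
The log2 fold change (FGF2 minus PBS, y axis) against the mean level over 6 arrays (log2, x axis) for all 13051 genes in grey and the 67 members colored by subunit. The members lie in a narrow band around 0, mostly above a level of 10, with MRPL22 above the band and MRPS6 below it, and 15 genes outside the axis are not shown.

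The surplus of members above 0 did not hold without 1 array, PBS replicate 1. That array is singled out by the members' own low values, so a smaller change without it was to be foreseen. Members higher and lower numbered 37 and 30 without FGF2 replicate 1, and 46 and 21 without FGF2 replicate 3. They numbered 53 and 14 without FGF2 replicate 2 or PBS replicate 2, and 51 and 16 without PBS replicate 3. PBS replicate 1 held the lowest value of the 6 arrays for 45 of 67 members (67.2%), whereas 21.7% of all genes and 33.2% of all genes with a mean of 10 or more had their lowest value there. The median difference from the PBS mean was 0.082, -0.0085 and 0.019 on FGF2 replicates 1, 2 and 3, and -0.099, 0.063 and 0.043 on PBS replicates 1, 2 and 3. FGF2 replicate 1 held the highest value for 26 members, and FGF2 replicate 2 held the lowest for 14. On a linear scale the members summed to 191566, 181109 and 183537 on the FGF2 arrays and to 168450, 189251 and 187323 on the PBS arrays. The FGF2 sums lay on both sides of those of PBS replicates 2 and 3, and PBS replicate 1 lay below all of them. Without PBS replicate 1 the median change was -0.014, with 28 members higher and 39 lower, so the sign of the median turned. The median over all genes was then -0.019. With a mean of 10 or more, 42.9% of the 56 members were then higher (median -0.0125), against 51.2% of the 4087 genes (median 0.0025).

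**Figure D3:**
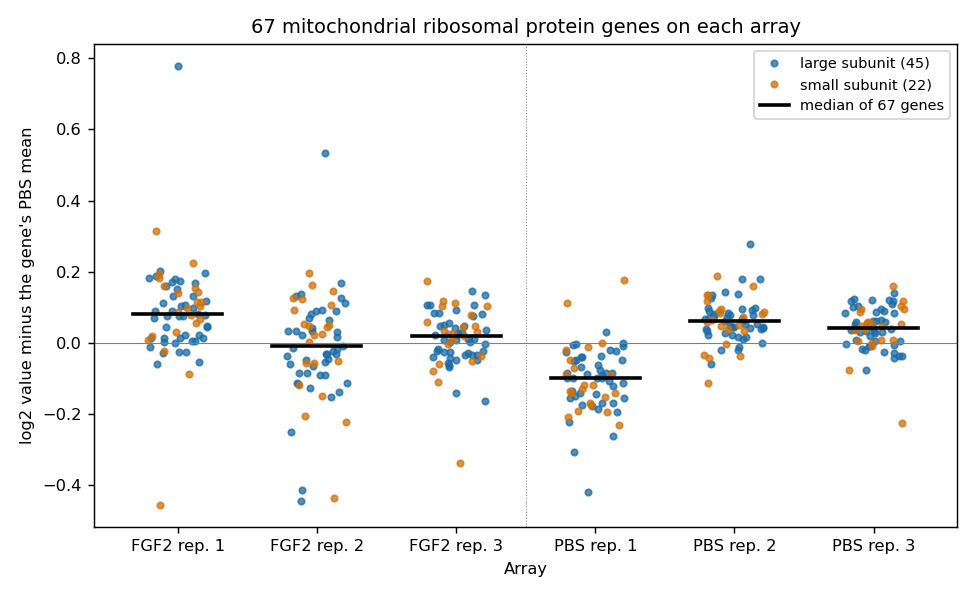
Each point is a gene on an array (x axis), given as its log2 value minus its own mean over the PBS arrays (y axis), colored by subunit, and black bars are medians over the 67 genes. The median is -0.099 on PBS replicate 1 and between -0.0085 and 0.082 on the other arrays.

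Low values on that array were found in both subunits and in some, but not all, other groups of genes. PBS replicate 1 held the lowest value for 30 of 45 large subunit genes and 15 of 22 small subunit genes. It also did so for 51 of 76 respiratory chain genes (67.1%), 13 of 24 genes of mitochondrial ribosome assembly, 9 of 17 mitochondrial tRNA synthetases and their partners, and 27 of 66 cytosolic ribosomal protein genes (40.9%). The shares were 14 of 29 for mitochondrial import and 7 of 13 for cell cycle genes, but 6 of 19 for mitochondrial DNA and transcription, 4 of 12 for regulators and 3 of 16 for mitochondrial translation factors, the last below the share of all genes. The median difference of the respiratory chain genes on that array was -0.137 and that of the cytosolic ribosomal protein genes -0.036, beside -0.099 for the members. On the same array the cartilage markers had the highest summed level of the 6 arrays, 51235, and the 7 measured red blood cell markers the lowest, 33357, against 35882 to 46040 elsewhere. Skeletal muscle (54609) and endothelial markers (9598) also had their highest sum there, and ectoderm markers (7009) and cell cycle genes (83863) their lowest. The sums of limb mesenchyme and macrophage markers were neither highest nor lowest there. Sums weigh bright markers most. By count, PBS replicate 1 held the highest value for 6 of 7 cartilage, 5 of 11 skeletal muscle and 3 of 10 endothelial markers. It held the lowest for 1 of 8 ectoderm markers and 3 of 7 red blood cell markers. FGF2 replicate 2 also held the lowest for 3 of those 7. The part of any of these in the low values was not tested.

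**Figure D4:**
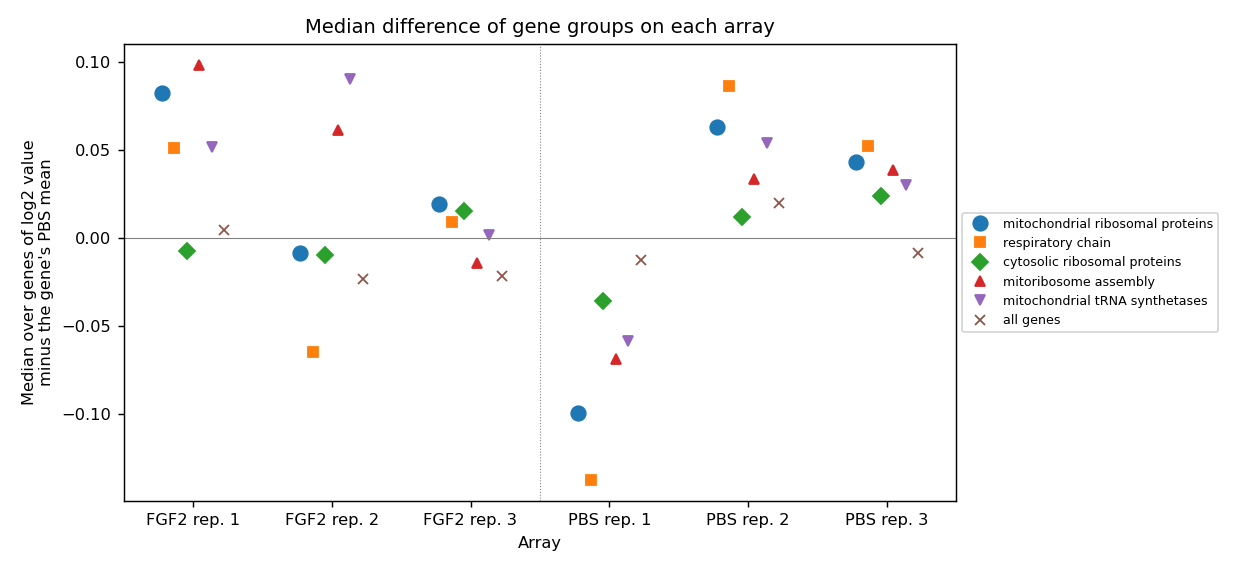
The median over the genes of a group of the log2 value minus the gene's PBS mean (y axis) on each array (x axis), for the members and 5 other groups, told apart by marker shape. On PBS replicate 1 the members (-0.099) and the respiratory chain (-0.137) lie lowest, and all genes together lie at -0.013.

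The subunits gave similar medians. The 45 large subunit genes had a median change of 0.028 (31 higher, 14 lower, none with an unadjusted p under 0.05). The 22 small subunit genes had a median of 0.055 (18 higher, 4 lower), with MRPS6 the single gene at an unadjusted p under 0.05. Members with a bacterial counterpart had a median of 0.047 over 38 genes, and those specific to mitochondria 0.033 over 29. No test of these differences was made.

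MRPS6, the counterpart of a bacterial protein of the small subunit platform, gave the lowest p of the members. Its values were 11.61, 11.63 and 11.73 on the FGF2 arrays and 12.24, 12.11 and 11.84 on the PBS arrays. All FGF2 values lay below all PBS values, with FGF2 replicate 3 and PBS replicate 3 nearest to each other. This probe set was 1.33-fold lower around FGF2 beads (log2 fold change -0.41 ± 0.109 SE, 95% interval -0.68 to -0.13), at an unadjusted p of 0.0117 and an adjusted p of 0.433 (limma). Leaving out single arrays gave changes between -0.52 and -0.32.

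A second probe set of MRPS6 pointed the other way. It gave 7.69, 8.07 and 7.74 on the FGF2 arrays and 7.39, 7.45 and 7.47 on the PBS arrays, again without overlap. The second probe set was 1.32-fold higher around FGF2 beads (log2 fold change 0.40 ± 0.106 SE, adjusted p = 0.433 in limma), with FGF2 replicate 2 the highest. The mean of both gave a change of -0.0058. The brighter probe set is of the class that can match several transcripts, and the dimmer is not. In the chicken reference gene table (GRCg7b) the span of SLC5A3, which encodes a sodium-dependent inositol transporter, lies within that of MRPS6. The 2 probe sets named SLC5A3 were near background, with means of 2.20 and 2.26 and log2 fold changes of -0.029 and -0.0071. Which transcript each MRPS6 probe set reads was not tested, and the direction for the gene is therefore uncertain.

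**Figure D5:**
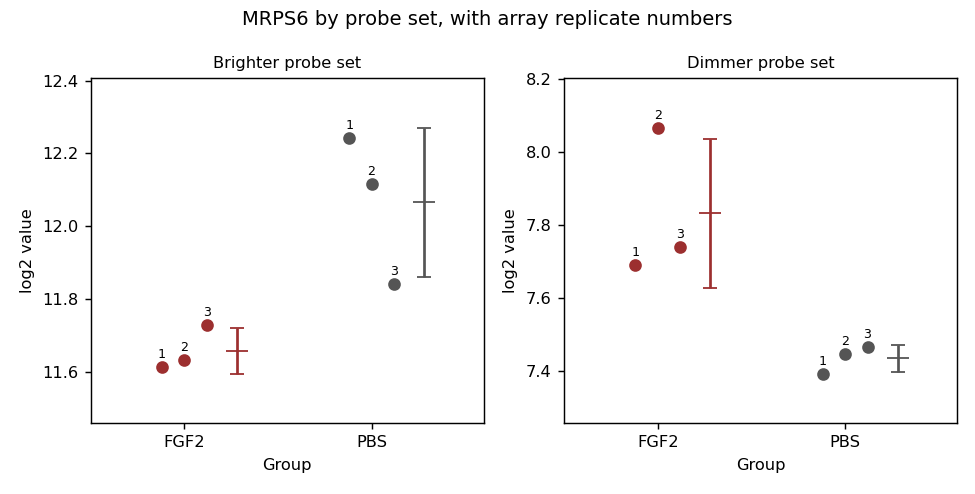
Log2 values (y axis) of the brighter and the dimmer probe set of MRPS6 on the FGF2 and PBS arrays (x axis), with replicate numbers above the points and the mean ± SD (n = 3) beside them. The FGF2 values lie below the PBS values for the brighter probe set (-0.41) and above them for the dimmer (0.40), and the y axes differ.

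MRPL22, whose bacterial counterpart lines the exit tunnel of the new protein, had the largest positive difference and is named, like the genes said to be so below, after its values were seen. It gave 8.43, 8.19 and 7.76 on the FGF2 arrays and 7.24, 7.93 and 7.80 on the PBS arrays. FGF2 replicate 3 lay within the PBS values, and PBS replicate 1 lay below every other array. The means were 8.13 ± 0.340 in FGF2 tissue and 7.65 ± 0.369 in PBS tissue (SD, n = 3), a log2 fold change of 0.47 ± 0.251 (SE) with a 95% interval of -0.16 to 1.11, so neither no change nor a 2-fold increase lay outside it (adjusted p = 0.644, limma). Leaving out single arrays gave changes between 0.26, without PBS replicate 1, and 0.65, without FGF2 replicate 3. Other proteins at the tunnel exit, also named after their values were seen, were MRPL24, MRPL23 and MRPL47. MRPL24 gave 0.075, and 0.014 (without PBS replicate 1) to 0.11 with single arrays left out. MRPL23 gave -0.020. MRPL47, a dim probe set with means of 4.22 in FGF2 tissue and 4.17 in PBS tissue, gave 0.047. MRPL45, which helps to hold the ribosome at the inner membrane, gave 0.084 ± 0.073 (SE).

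The stalk of the large subunit, where translation factors dock, was represented by MRPL10 and MRPL12. MRPL12 gave 12.32, 12.11 and 12.14 on the FGF2 arrays and 12.02, 12.24 and 12.23 on the PBS arrays. Its groups overlapped, and the change was 0.028 ± 0.085 (SE, 95% interval -0.19 to 0.24). MRPL10 gave 10.27, 10.35 and 10.22 on the FGF2 arrays and 10.23, 10.31 and 10.26 on the PBS arrays, a change of 0.013 ± 0.043 (SE, 95% interval -0.095 to 0.12). Both intervals leave out a change of 1.25-fold in either direction.

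The members with the brightest probe sets were MRPL28 and MRPL13, both counterparts of bacterial proteins. MRPL28 gave 13.26, 13.27 and 13.25 on the FGF2 arrays and 13.17, 13.25 and 13.34 on the PBS arrays, a change of 0.0075 ± 0.046 (SE). MRPL13 gave 13.14, 13.07 and 13.12 on the FGF2 arrays and 12.89, 13.07 and 13.14 on the PBS arrays, a change of 0.075 ± 0.069 (SE). Its change was 0.0042 without PBS replicate 1 and 0.13 without PBS replicate 3. The lowest value of both genes was on PBS replicate 1, and the FGF2 arrays differed among themselves by less than the PBS arrays. MRPL27, whose bacterial counterpart reaches toward the peptidyl transferase center, is named after its values were seen. It gave 12.45, 12.34 and 12.39 on the FGF2 arrays and 11.99, 12.39 and 12.37 on the PBS arrays. Its change of 0.14 became 0.013 without PBS replicate 1 and 0.21 without PBS replicate 2.

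At the other end, MRPL34 and MRPL21 had probe sets at background. MRPL34 stood at 1.93 ± 0.019 in FGF2 tissue and 1.95 ± 0.015 in PBS tissue, and MRPL21 at 2.50 ± 0.022 in FGF2 tissue and 2.54 ± 0.042 in PBS tissue (SD, n = 3). These values bear on the probe sets, not on whether the genes are expressed. MRPL30, named after its values were seen, lay at the background level of 3.57, with 3.60, 3.41 and 3.49 on the FGF2 arrays and 3.59, 3.75 and 3.63 on the PBS arrays. Its change of -0.16 ± 0.068 (SE, adjusted p = 0.591, limma) had the lowest p after that of MRPS6, though the FGF2 mean, 3.499, lay below that level. MRPL33, also named after its values were seen, was dim as well (means 4.66 in FGF2 tissue and 4.70 in PBS tissue). The 3 members with a mean under 4 all had changes below 0 (-0.16 to -0.015), as did most genes that dim. These were 539 of 556 genes between levels 1 and 2, 1857 of 2048 between 2 and 3, and 613 of 808 between 3 and 4. The last band, which holds MRPL30, had a median of -0.055, closer to 0 than the change of MRPL30.

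MRPL58, MRPL44 and MRPS18A, counted in the large subunit and named after their values were seen, had changes within 1.25-fold. MRPL58, a peptidyl-tRNA hydrolase that became part of the ribosome, gave 0.071 ± 0.071 (SE), MRPL44, a relative of RNase III, gave -0.069 ± 0.055 (SE), and MRPS18A gave 0.11 ± 0.089 (SE). With single arrays left out MRPL58 ran from 0.021 to 0.12, MRPL44 from -0.11 to -0.020 and MRPS18A from 0.025 to 0.18. The first value of each range is that without PBS replicate 1. MRPL50, whose probe sets differed more than most, gave -0.14 ± 0.121 (SE) from 11.52, 11.13 and 11.56 on the FGF2 arrays and 11.51, 11.53 and 11.61 on the PBS arrays. FGF2 replicate 2 stood below the others, and without it the change was -0.0099. Its dimmer probe set gave -0.31 ± 0.092 (SE, adjusted p = 0.464, limma), with 8.33, 7.997 and 8.25 on the FGF2 arrays and 8.53, 8.52 and 8.46 on the PBS arrays. There the groups did not overlap, and FGF2 replicate 2 was again the lowest.

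In the small subunit, MRPS12, the counterpart of a bacterial protein of the decoding center, gave 10.20, 9.92 and 10.10 on the FGF2 arrays and 9.81, 10.18 and 10.14 on the PBS arrays. The groups overlapped, with a change of 0.034 ± 0.124 (SE, 95% interval -0.28 to 0.35). MRPS9, the single member that was higher without overlap and named after its values were seen, gave 10.58, 10.56 and 10.56 on the FGF2 arrays and 10.31, 10.53 and 10.48 on the PBS arrays. The change was 0.13 ± 0.060 (SE, adjusted p = 0.620, limma), and 0.064 (without PBS replicate 1) to 0.17 with single arrays left out. MRPS16 gave 0.083 ± 0.094 (SE), and its other probe sets gave -0.041, 0.19 and 0.13, none with an unadjusted p under 0.05. The probe set with -0.041 was almost as bright as the one that stood for the gene (means 9.816 and 9.817). MRPS2, MRPS5 and MRPS7, counterparts of bacterial small subunit proteins and named after their values were seen, gave 0.10 ± 0.071, 0.099 ± 0.128 and 0.057 ± 0.038 (SE).

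Of the 67 genes 19 had more than 1 probe set, which added 29 probe sets. The 29 had a median change of -0.021 (10 higher, 19 lower, 34.5% above 0). The 16 with a mean above 4 had a median of 0.045 (10 higher, 6 lower). Among these 16, at an unadjusted p under 0.05 there was 1 higher (MRPS6) and 1 lower (MRPL50). Among all probe sets 8.93% passed at that p, 5.6% higher and 3.33% lower, while 6.53% were higher and 5.84% lower without overlap and 34.9% had a change above 0. The spread between the highest and lowest change among a gene's probe sets was 0.81 for MRPS6, 0.23 for MRPS16 and 0.17 for MRPL50, the largest of the 19. Of the 67 members 16 overlap another protein-coding gene in the reference gene table, and which transcripts their probe sets match was not tested. MRPS11 and MRPL46 are neighbors there, and they gave 0.048 and -0.077, neither beyond its standard error.

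Proteins of the same ribosome that carry other names gave small changes too. DAP3, PTCD3, AURKAIP1 and CHCHD1 gave 0.015, -0.005, -0.044 and -0.096, none with an unadjusted p under 0.05. Among genes that build and serve the ribosome, counts are to be read against the 7.76% of all genes that were higher and the 4.58% that were lower at an unadjusted p under 0.05. The assembly genes had a median change of 0.055, and at an unadjusted p under 0.05, 4 of the 24 (16.7%) passed upward and 0 downward. MTG2, a GTPase of large subunit assembly, was at 9.17, 9.19 and 9.14 on the FGF2 arrays and 8.89, 9.06 and 9.03 on the PBS arrays (0.18 ± 0.050 SE, adjusted p = 0.460, limma). MTERF3, a factor of mitochondrial transcription and ribosome assembly, gave 0.22 ± 0.083 (SE), but -0.095 with the probe sets that can match several transcripts left out. Without PBS replicate 1 the count of assembly genes was 2. Of all 13051 genes 714 were then higher and 521 lower at that p, against 1013 and 598 with all 6 arrays. List counts without that array, here and below, are to be read against the former.

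Of 17 mitochondrial tRNA synthetases and partners 4 (23.5%) were higher at an unadjusted p under 0.05 and 0 lower, with a median of 0.016. MARS2, the methionine enzyme, was at 8.68, 8.78 and 8.76 on the FGF2 arrays and 8.17, 8.62 and 8.38 on the PBS arrays (0.35 ± 0.118 SE, adjusted p = 0.514, limma). QRSL1, a subunit of the enzyme that completes glutamine tRNA, gave 0.32 ± 0.102 (SE, adjusted p = 0.489, limma). The groups did not overlap for either. The count of 4 was the same without PBS replicate 1. Of 16 translation factors and tRNA modifiers 1 was higher, TRMU, which thiolates tRNA (0.44 ± 0.150 SE, adjusted p = 0.512, limma), and 0 without PBS replicate 1. Of 19 genes of mitochondrial DNA and transcription 1 was higher, TFB2M (0.22 ± 0.084 SE), again 0 without that array, and of 29 import genes 1, MIPEP (0.11).

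Regulators of mitochondrial gene expression numbered 12, of which 4 (33.3%) passed upward and 0 downward at the same p, and 1 passed upward without PBS replicate 1. CREB1 and NRF1, transcription factors known to act on nuclear genes for mitochondrial proteins in mammals, gave 0.33 ± 0.107 and 0.19 ± 0.069 (SE). NRF1 was at 6.87, 6.996 and 6.77 on the FGF2 arrays and 6.62, 6.75 and 6.69 on the PBS arrays, just without overlap. No gene of these lists passed an adjusted p of 0.05. Beside the members' 1 of 67, the respiratory chain had 1 of 76 genes higher (NDUFAF1, an assembly factor of complex I, 0.16) and 1 lower (NDUFS4, a complex I subunit, -0.29), with a median of 0.011. Without PBS replicate 1 these counts were 0 and 4 and the median -0.069, where 714 of all 13051 genes were higher and 521 lower. The cytosolic ribosomal proteins had 0 of 66 higher and 1 lower (RPS12, -0.13), with a median of -0.002. No test of the difference between these groups of genes was made.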

How the data were processed

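Total RNA from 3 FGF2 and 3 PBS pools was measured on single-color Affymetrix chicken arrays. The authors deposited a table normalized with RMA, and its values are taken as log2 because they run to 15.95. The log base and the background model are not given in the sources used here, and scanner files were not used. The 96 control probe sets of 38535 were left out. Probe sets with a single symbol were joined into genes by Entrez Gene identifier, or by symbol where none was given, and all 67 members were found in the reference gene table.

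Differences (FGF2 minus PBS) were tested two-sided in limma 3.58.1 (lmFit, eBayes; R 4.3.3). P-values were adjusted after Benjamini and Hochberg across the 38439 probe sets, with 0.05 as threshold. SE is the moderated one. With 3 arrays against 3 a permutation test cannot give a p under 0.1, and the p-values rest on how much the pools differ. The number of arrays limits the precision. The fit was tested on simulated data with planted changes larger than that of any member and without shifts shared by an array. That test therefore does not bear on changes as small as those of the members. Members, lists and tests were chosen with earlier results of these data known.

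Members were named where the unadjusted p was under 0.05, where the mean level was among the 2 highest or 2 lowest, where a gene's probe sets differed most (3 genes), and for MRPL10, MRPL11, MRPL12 and MRPS12. Up to 2 genes of each mitochondrial list at an unadjusted p under 0.05 were named, and cell type lists are given as counts and sums. Alternatives were a replicate block, other normalizations, filters, weights, probe set choices and each array left out.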

Additional observations from a re-analysis of the deposited data

How the results depend on the processing

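No member passed an adjusted p of 0.05 under any of the 15 alternatives run, which included each array left out in turn. At an adjusted p under 0.25 there were 13 with array weights (these weights had not converged), 1 among the brighter 50% of probe sets and 0 otherwise. The count of all probe sets at 0.25 was not taken. At 0.05, 2256 of them passed with array weights and 40 among the brighter 50%. The median change of the members ran from -0.014 (without PBS replicate 1) to 0.064 (without PBS replicate 3), and was 0.013 with cyclic loess, where 42 members were higher and 25 lower. Members higher at an unadjusted p under 0.05 numbered 0 to 2 with each array left out (1 without FGF2 replicate 2 or PBS replicate 2, 2 without FGF2 replicate 3), 5 with array weights and 1 with unique probe sets alone, meaning those not marked as matching several transcripts. Members lower numbered 1 to 2 with each array left out (2 without FGF2 replicate 1), 2 with array weights and 0 when a gene's probe sets were averaged. These counts are to be read against all genes. With array weights 2200 of all 13051 genes were higher and 2121 lower at that p. Unique probe sets covered 47 members, and 782 genes were higher and 526 lower with them. With each array left out 590 to 1196 genes were higher and 347 to 706 lower. Among all genes 62.9% of those at that p were higher, and 49.7% after quantile normalization again (716 higher, 725 lower), 56.1% after median centring, 55.6% with cyclic loess and 50.9% with array weights.

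Probe sets past an adjusted p of 0.05 numbered 4 in all, 1 with a replicate block, 7 after quantile normalization again, 40 in the brighter 50%, 39 with a variance trend and robust fitting, 2256 with array weights, and 0 to 3 with each array left out, namely 3 without FGF2 replicate 1, 2 without FGF2 replicate 2 or 3, and 0 without PBS replicate 1, 2 or 3. The replicate block gave the members the same counts. Same-numbered arrays did not deviate together: correlations across genes were -0.29, 0.021 and -0.14 for numbers 1, 2 and 3, and each array correlated best with an array of another number (0.26, 0.17 and 0.38 for FGF2 replicates 1, 2 and 3). The numbers were not taken as pairs, and the labels do not say which arrays share a day.

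With unique probe sets MRPS6 gave 0.40, and its other probe set, an alternative chosen after seeing the data, is that same one. Small changes turned sign as follows. With array weights MRPL10 gave -0.024, MRPL12 -0.0076, MRPL23 0.014, MRPL28 -0.018, MRPL45 -0.024 and MRPS5 -0.10. With cyclic loess MRPL10 gave -0.014, MRPL28 -0.0064 and MRPL34 0.012. After quantile normalization again MRPL10 gave -0.0096, MRPL21 0.00025 and MRPL34 0.0055. With unique probe sets RPS12 gave 0.059 and MTERF3 -0.095, and RPS12 0.021 with the mean of its probe sets. With each array left out MRPL10 ran from -0.020 to 0.044, MRPL12 from -0.044 to 0.068, MRPL23 from -0.10 to 0.048, MRPL28 from -0.034 to 0.049, MRPS5 from -0.0093 to 0.20, MRPS11 from -0.036 to 0.095 and MRPS12 from -0.082 to 0.11. The cause was not tested. MARS2, QRSL1, TFB2M and TRMU passed an adjusted p of 0.05 with array weights (0.44, 0.38, 0.30 and 0.68), and none of them did in the main fit. These weights had not converged, and 2256 of all probe sets passed with them. They were 8.45 on FGF2 replicate 3 against 0.27 and 0.48 on FGF2 replicates 1 and 2, so that fit rested mostly on 1 FGF2 array. The lists without PBS replicate 1 were also added after seeing the data. Pools of tissue and 3 arrays per group limit what can be seen: for MRPL22 a 2-fold increase was not left out.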
